A study of Mus musculus with 4 samples.

Results

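The transcripts described here encode the late components of complement and several proteins that hold complement in check. The 9 members were named as genes: C6, C8a, C8b, C8g, C9 and Hc of the terminal pathway, and the regulators Susd4, Cfi and C4bp. They were chosen by gene name with earlier results of the same comparison known, so their differences between the crosses are given as a description, with no p-value of a member, and the counts of members past the test over all genes stand beside the share of all genes without being read as evidence. Every member had a probe set that the platform annotation ties to its symbol alone, 10 probe sets in all because Susd4 had 2, and the brightest over the 4 arrays stood for its gene. The members are 9 of 18193 genes with such a probe set.

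RNA came from whole liver slices of 4 male mice aged 9 months, which ate chow and received no intervention, in a series about nonalcoholic fatty liver disease. The AB6F1 group (n = 2) had AJ dams and B6 sires, and the B6AF1 group (n = 2) had B6 dams and AJ sires. Males of both groups therefore share the same autosomal mix of AJ and B6, while the X chromosome and mitochondria follow the dam, the Y chromosome follows the sire, and imprinted alleles trade places. Each mouse was measured on an Affymetrix array whose deposited values are MAS5 signals, which combine the matching and mismatching probes of a probe set on a linear scale. Every array held 45101 probe sets scaled to a trimmed mean of 500, and the median signals ran from 67.2 to 77.9. The number of arrays limits precision, and with 2 mice a group the smallest p of an exact permutation test on a single value is 0.333. Identifiers in the labels run in separate blocks for each group, so collection and cross cannot be told apart. Of 12 hepatocyte markers listed, 10 were measured above the filter described below, and Alb, the albumin gene, gave signals of 40788 and 38514 in AB6F1 against 40357 and 48625 in B6AF1. In such bulk tissue, fewer cells of a type and less RNA per cell cannot be told apart.

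Complement is a cascade of plasma proteins, most of them made by hepatocytes, that marks and punctures microbes. When the protein encoded by Hc, complement C5, is cleaved, its larger fragment binds C6 and C7, and the complex takes up C8 and then many copies of C9, which form a pore called the membrane attack complex. Regulators act earlier: factor I, encoded by Cfi, cuts activated C3 and C4 fragments, C4b-binding protein is one of its cofactors, and Susd4 encodes a sushi-domain protein reported to inhibit complement activation.

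The largest differences among the members were those of Susd4, C6 and C8b, all lower in AB6F1. Susd4 signal was 5.51-fold lower, C6 signal 2.64-fold lower and C8b signal 2.35-fold lower in AB6F1, whereas C9, Cfi, Hc and C4bp had overlapping arrays and log2 differences between -0.19 and 0.18. All 9 members passed the filter, a mean log2 signal no lower than that of the median probe set (60.9 in signal), and every one of their brightest probe sets lay above that signal on every array.

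**Figure D1:**
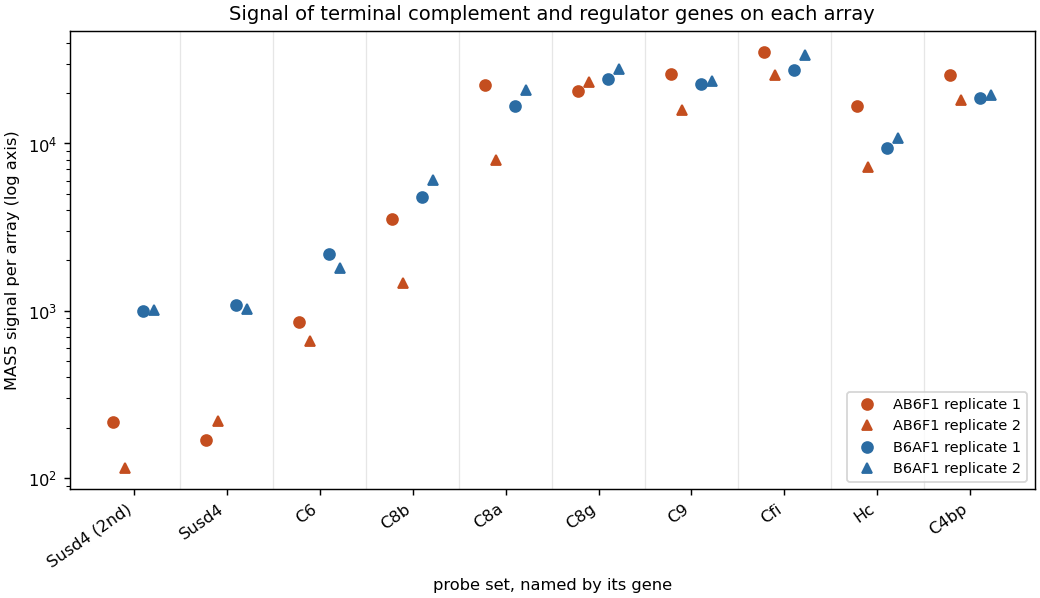
Signal of each member probe set (horizontal axis) on each of the 4 arrays (vertical axis, MAS5 signal, log scale); colour gives the cross and shape the replicate, and levels of different probe sets cannot be compared. Both AB6F1 arrays lie below both B6AF1 arrays for Susd4 on either probe set, C6, C8b and C8g.

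Among the regulators, Susd4 stood apart. Its brighter probe set gave signals of 167.4 and 218.3 in AB6F1 against 1085.3 and 1023.8 in B6AF1. The B6AF1 mice were close to each other and the highest AB6F1 value was far below them. The means were 193 ± 36.0 (SD, n = 2) and 1055 ± 43.5 (SD, n = 2), a log2 difference of -2.46 ± 0.20 (limma's moderated SE), against a within-cross SD of 0.20 on the log2 scale. Of all 11749 genes tested, 6 had a more negative difference. The second Susd4 probe set gave 216.9 and 114.6 in AB6F1 against 994.4 and 1011.3 in B6AF1, with a log2 difference of -2.67 ± 0.30 (SE). The AB6F1 mice changed order between the probe sets, and both probe sets kept the crosses apart.

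The other regulators were measured at high signal and did not separate the crosses. Cfi gave 35208 and 25649 in AB6F1 against 27318 and 33700 in B6AF1, so that the AB6F1 mice lay outside the B6AF1 mice on both sides. Its log2 difference was -0.01 ± 0.18 (SE), and the sign turned to 0.07 under quantile normalization. C4bp gave 25591 and 18233 in AB6F1 against 18797 and 19426 in B6AF1, a log2 difference of 0.18 ± 0.17 (SE). The AB6F1 mice again lay on either side of the B6AF1 pair.

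The promoter windows of Susd4 and C6 are shown because these members had the most negative differences, and those of the neighbours C8b and C8a because these adjacent genes gave unlike values. The sequences are RefSeq's on mouse build GRCm38.p6, each the 250 bases before an annotated transcript start, 5′ to 3′ on the strand of the gene, and lie at chr1:182763966-182764215 (+, Susd4), chr15:4726960-4727209 (+, C6), chr4:104766067-104766316 (+, C8b) and chr4:104876399-104876648 (-, C8a). The RefSeq gene bounds start at 182764044 for Susd4 and 4727067 for C6, and end at 104876487 for C8a. The printed windows of these genes thus lie partly within the annotated gene. Capitals mark a match to 1 of the 4 motifs described further on, and only the C8a window holds one.
Susd4: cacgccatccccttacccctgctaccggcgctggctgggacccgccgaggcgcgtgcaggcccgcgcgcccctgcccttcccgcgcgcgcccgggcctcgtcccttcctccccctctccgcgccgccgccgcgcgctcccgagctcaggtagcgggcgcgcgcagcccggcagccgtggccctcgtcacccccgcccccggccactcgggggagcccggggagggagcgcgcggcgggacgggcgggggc
C6: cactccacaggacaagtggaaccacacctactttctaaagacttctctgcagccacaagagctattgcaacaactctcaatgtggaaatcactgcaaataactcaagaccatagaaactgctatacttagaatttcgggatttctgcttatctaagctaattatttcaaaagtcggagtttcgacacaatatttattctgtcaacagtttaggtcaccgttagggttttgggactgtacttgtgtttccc
C8b: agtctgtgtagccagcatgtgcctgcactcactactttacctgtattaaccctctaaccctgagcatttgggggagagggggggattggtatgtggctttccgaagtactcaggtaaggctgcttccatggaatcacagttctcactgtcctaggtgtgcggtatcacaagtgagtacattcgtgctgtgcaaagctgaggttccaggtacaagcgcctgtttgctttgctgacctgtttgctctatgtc
C8a: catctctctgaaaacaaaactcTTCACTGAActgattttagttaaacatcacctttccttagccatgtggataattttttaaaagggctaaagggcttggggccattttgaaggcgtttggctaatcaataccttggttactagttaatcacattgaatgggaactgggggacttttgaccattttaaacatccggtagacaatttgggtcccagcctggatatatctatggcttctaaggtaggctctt

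Terminal components were read in the order of assembly. Hc, the gene of complement C5, gave signals of 16735 and 7269 in AB6F1 against 9384 and 10831 in B6AF1. The 2 AB6F1 mice were the highest and the lowest of the 4, and the log2 difference was 0.13 ± 0.34 (SE), turning to -0.01 when each array was centred on its median. The AJ strain is known to carry an inactive Hc allele, which mice of both crosses inherit from their AJ parent.

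C6, the first component that C5b binds and a transcript usually more abundant in male than in female mouse liver, gave 851.5 and 656.8 in AB6F1 against 2167.5 and 1796.4 in B6AF1. Both AB6F1 mice lay far below both B6AF1 mice. The means were 754 ± 138 (SD, n = 2) and 1982 ± 262 (SD, n = 2), with a log2 difference of -1.40 ± 0.18 (SE) and a within-cross SD of 0.23. Of the 11749 genes tested, 50 had a more negative difference.

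The C8 protein joins an alpha, a beta and a gamma chain from separate genes, and the 3 transcripts gave different pictures. C8b, the beta chain that docks onto the forming complex, gave 3534.7 and 1467.7 in AB6F1 against 4760.1 and 6030.2 in B6AF1. The AB6F1 mice were both lower but unlike each other, at a ratio of 2.41. The log2 difference was -1.23 ± 0.37 (SE), and 73 tested genes had a more negative one. C8a, the alpha chain that enters the membrane, gave 22489 and 7958 in AB6F1 against 16710 and 20870 in B6AF1, so the AB6F1 mice again bracketed the B6AF1 mice, at a ratio of 2.83. Its log2 difference was -0.48 ± 0.42 (SE). C8g, the gamma chain of the lipocalin family, gave 20615 and 23327 in AB6F1 against 24376 and 27843 in B6AF1. Its crosses did not overlap, but its log2 difference was only -0.25 ± 0.13 (SE). The value was -0.16 after quantile normalization and -0.39 after median centring.

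C9, the pore-forming component, gave 25880 and 15777 in AB6F1 against 22599 and 23500 in B6AF1. The B6AF1 mice were alike and lay between the AB6F1 mice, and the log2 difference was -0.19 ± 0.22 (SE). C7, the terminal component between C6 and C8, had no probe set of a single symbol and was not analysed here.

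**Figure D2:**
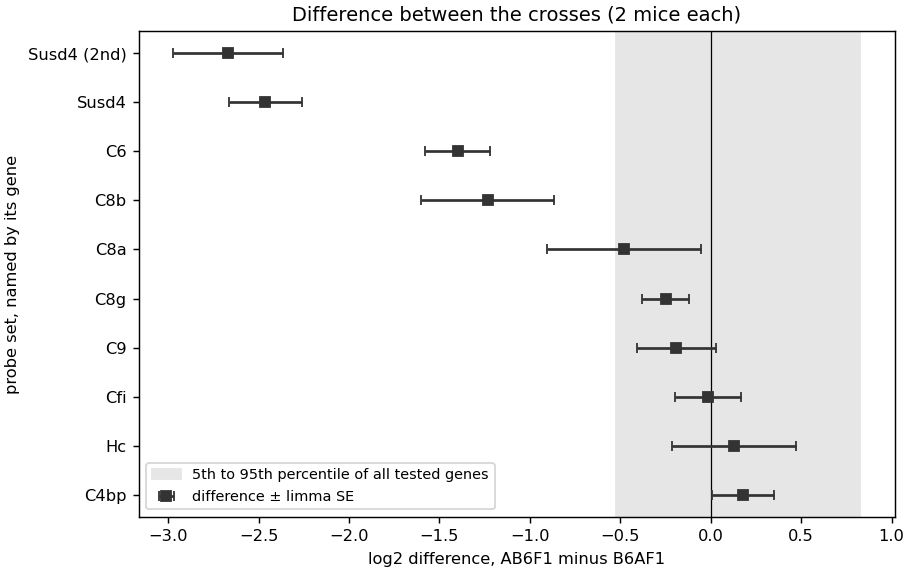
Log2 difference between the crosses (horizontal axis, AB6F1 minus B6AF1, squares, with bars of 1 limma SE) for each member probe set (vertical axis); the grey band spans the 5th to 95th percentile of all tested genes, -0.52 to 0.83. Susd4, C6 and C8b lie left of the band and the other members inside it.

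Counted together, 7 of the 9 members were lower in AB6F1 and 2 were higher, where 46.5% of all tested genes were lower. The median log2 difference was -0.25 for the members and 0.02 for all tested genes. All 10 tested hepatocyte markers were lower in AB6F1 as well, at a median of -0.08. For 4 members, Susd4, C6, C8b and C8g, both AB6F1 arrays lay below both B6AF1 arrays, as they did for 18.7% of all tested genes, and no member had the reverse order, where 41.2% of all tested genes did not overlap in either direction. For 3 members the log2 difference was below -1, against 1.14% of all tested genes. The single member past limma with Benjamini-Hochberg adjustment over all tested genes was Susd4, where 25 genes, or 0.213%, passed, and 0.0766% passed as lower in AB6F1. Nothing is read from these shares, since the members were chosen with this contrast known. The call of Susd4 was lost without the intensity trend in the variance, where 0 genes passed and 1044 had an unadjusted p under 0.05. C6 was called as well under 5 alternatives with all 4 arrays: median centring, 16 added to the signal, no filter, robust moderation and the replicate block. Without B6AF1 replicate 1 or without B6AF1 replicate 2 no member passed and 1 gene of all tested did, while the log2 difference of Susd4 was -2.42 and -2.51. Without AB6F1 replicate 1, 79 genes passed, among them the 4 members Susd4, C6, C8a and C8b. Without AB6F1 replicate 2, 242 genes passed, among them the 3 members Susd4, C6 and Hc, with Hc higher in AB6F1 at 0.73 (log2). Without AB6F1 replicate 2 the count of lower members was 4 and their median log2 difference was 0.17.

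The AB6F1 mice differed from each other more than the B6AF1 mice did for most members. AB6F1 replicate 2 was lower than AB6F1 replicate 1 for 7 of the 9 members, where 53.5% of all tested genes were lower. The ratio of AB6F1 replicate 1 to replicate 2 was 2.83 for C8a, 2.41 for C8b, 2.30 for Hc, 1.64 for C9, 1.40 for C4bp, 1.37 for Cfi and 1.30 for C6, and it was 0.88 for C8g and 0.77 for the brighter Susd4 probe set. For the second Susd4 probe set the ratio was 1.89, with replicate 2 the lower mouse. The median ratio was 1.40 over the members, each by its brightest probe set, and 1.02 over all tested genes. In B6AF1 the ratio of replicate 2 to replicate 1 ran from 0.83 for C6 to 1.27 for C8b. Some other lists showed the same order of the AB6F1 mice and some did not, in counts that do not give the size of the gap. AB6F1 replicate 2 was below replicate 1 for 24 of the 31 tested genes of the complement list described below. It was so for 9 of 10 tested hepatocyte markers, 13 of 14 acute-phase genes, 8 of 10 macrophage markers and 8 of 9 endothelial markers. The count was 5 of 9 for male-biased genes, 3 of 7 for female-biased genes and 3 of 10 for stellate cell markers. The summed signal of the acute-phase genes was 273390 and 176200 in AB6F1 against 179530 and 205520 in B6AF1. That of the hepatocyte markers was 400570 and 352910 against 373150 and 433290. By gene, 9 of the 14 acute-phase genes were higher in AB6F1 and 5 lower, with a median log2 difference of 0.35. Limma with adjustment over all genes called 2 of them, both higher, where 0.213% of all tested genes passed. At an unadjusted p under 0.05 there were 6, against 9.72% of all tested genes. The part of these lists in the members' values was not tested.

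**Figure D3:**
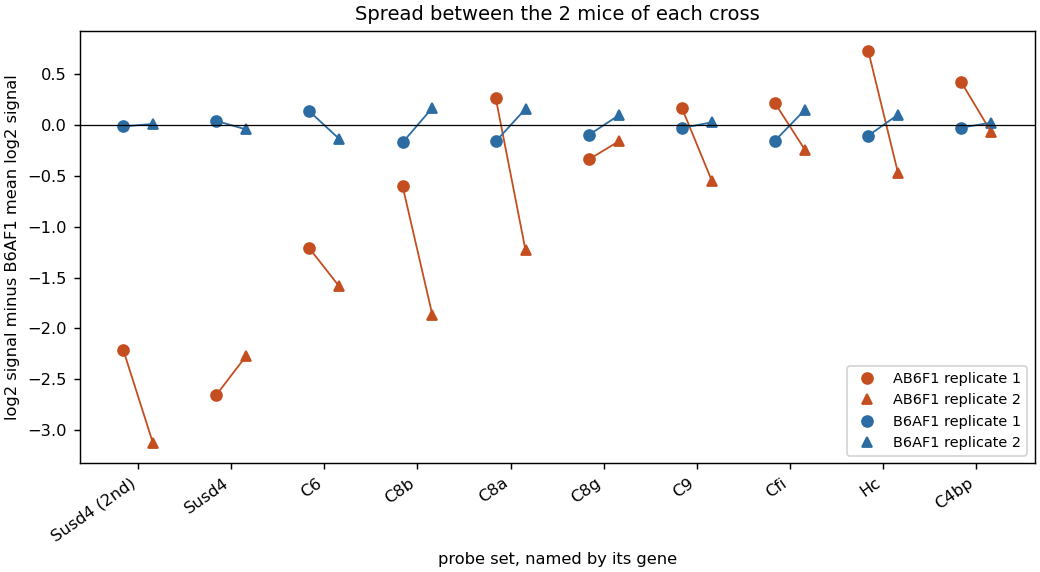
Log2 signal of each array minus the mean log2 signal of the B6AF1 arrays (vertical axis) for each member probe set (horizontal axis); lines join the 2 mice of a cross, coloured by cross, with shape giving the replicate. The AB6F1 lines are long for C8b, C8a, C9, Hc and the second Susd4 probe set, with replicate 2 the lower mouse. They span the B6AF1 values for C8a, C9 and Hc.

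The chains of C8 were also set against each other within each array, a choice made after their values were seen. The log2 ratio of C8b to C8a, centred on its mean over the arrays, was -0.49 and -0.26 in AB6F1 against 0.37 and 0.39 in B6AF1. The crosses did not overlap, and the difference of -0.75 compares with a within-cross SD of 0.12, smaller than the SD of 0.66 for C8b and 0.77 for C8a. The ratio of C8b to C8g differed by -0.99 with a within-cross SD of 0.73, and the crosses did not overlap. That of C8a to C8g differed by -0.23 with a within-cross SD of 0.84, and the crosses overlapped. In RefSeq, C8b and C8a are neighbours on chromosome 4 on opposite strands, with no annotated gene between them.

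Sex-biased liver genes also differed between the crosses. All 9 tested genes of a list of 12 male-biased genes, which did not hold C6, were lower in AB6F1 (median log2 difference -1.32). Of these, 2 passed limma over all genes, where 0.213% of all tested genes passed and 0.0766% passed as lower. The arrays of 1 of the 9, Cyp4a12a, overlapped, while 18.7% of all tested genes were lower in AB6F1 without overlap. The summed signal of the male-biased genes was 91454 and 80925 in AB6F1 against 152910 and 143820 in B6AF1. All 7 tested genes of a female-biased list were higher, and 4 of them passed the test, against 0.213% of all tested genes. Their median was 1.89 and their summed signals were 28224 and 36844 against 7566 and 11310. The part of these shifts in the values of Susd4 and C6 was not tested.

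Earlier and parallel parts of complement were described from a list of 45 other genes, of which 31 were tested, 5 lay below the filter and 9 had no probe set of a single symbol, among them C3, C4a, C4b and Cfd. None of the 31 passed limma with Benjamini-Hochberg adjustment over all genes, where 0.213% of all genes passed. At an unadjusted p under 0.05 there were 5, against 9.72% of all tested genes. By sign, 15 were lower and 16 higher, and their median log2 difference was 0.02.

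**Figure D4:**
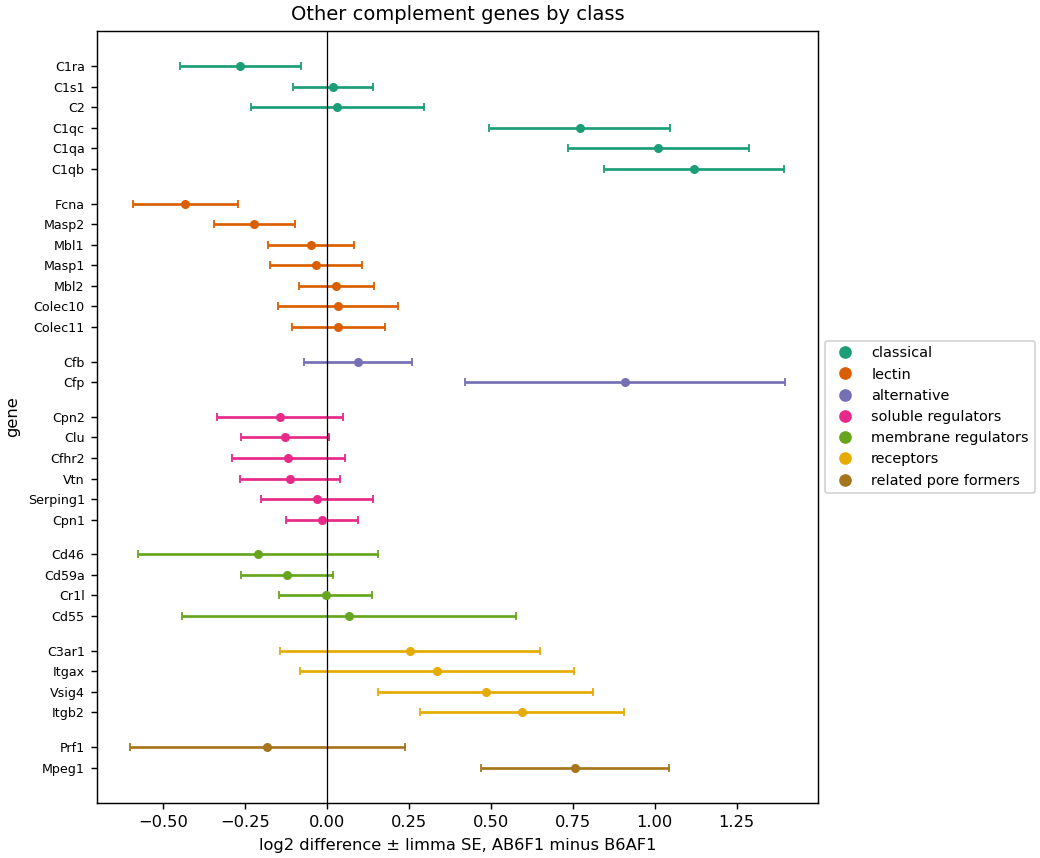
Log2 difference between the crosses (horizontal axis, AB6F1 minus B6AF1, points, with bars of 1 limma SE) for the 31 tested complement genes that are not members (vertical axis), coloured by class. The C1q chains and Mpeg1 lie to the right of 0, and the 6 soluble regulators lie at or just left of 0.

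C1qb and C1qa, chains of the C1q protein that starts the classical pathway and is made mainly by macrophages, had the most positive differences of this list. C1qb gave 1860.2 and 1013.6 in AB6F1 against 611.3 and 652.9 in B6AF1, so that the log2 difference was 1.12 ± 0.27 (SE; limma adjusted p = 0.278). C1qa gave 1554.4 and 985.0 against 499.4 and 754.2, a difference of 1.01 ± 0.28 (SE; limma adjusted p = 0.338). Neither chain had overlapping crosses. The third chain, C1qc, named after its values were seen, was at 0.77 ± 0.28 (SE; limma adjusted p = 0.451). Macrophage markers moved with the C1q chains: 9 of 10 tested were higher, with a median of 0.72 and summed signals of 20136 and 11738 in AB6F1 against 8447 and 10735 in B6AF1. None of the 10 passed limma with adjustment over all genes. At an unadjusted p under 0.05 there were 8, against 9.72% of all tested genes, and 1 of them, Cd163, was the lower marker at -0.85 (log2). Mpeg1 is 1 of the 10. Among other cell lists, 9 of 10 stellate cell markers (median 0.75), 6 of 9 endothelial (0.28) and 3 of 3 neutrophil markers (1.90) were higher. All 10 tested hepatocyte markers were lower. The part of these lists in the C1q values was not tested. Without AB6F1 replicate 2, C1qa, C1qb and Mpeg1 passed. Mpeg1, a macrophage gene of the same pore-forming fold as C9, was at 0.76 ± 0.29 (SE; limma adjusted p = 0.472), and Prf1, the perforin of killer lymphocytes, at -0.18 ± 0.42 (SE; limma adjusted p = 0.913).

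Of the lectin pathway, Fcna, a ficolin that recognises sugars, was at -0.43 ± 0.16 (SE; limma adjusted p = 0.463) and the protease Masp2 at -0.22 ± 0.12 (SE; limma adjusted p = 0.615), 4 of 7 tested genes being lower. In the alternative pathway, Cfp, the properdin gene, was at 0.91 ± 0.49 (SE; limma adjusted p = 0.602) and Cfb, factor B, at 0.10 ± 0.16 (SE; limma adjusted p = 0.876). All 6 tested soluble regulators had small negative differences with a median of -0.11. Clu, the gene of clusterin, which binds the forming attack complex, was at -0.13 ± 0.13 (SE; limma adjusted p = 0.794), and Cpn2, a subunit of carboxypeptidase N, at -0.14 ± 0.19 (SE; limma adjusted p = 0.84). Of the membrane regulators, Cd59a, which stops C9 from joining the pore, was at -0.12 ± 0.14 (SE; limma adjusted p = 0.811) and Cd46 at -0.21 ± 0.37 (SE; limma adjusted p = 0.879). Of the receptors, all 4 tested were higher. Itgb2, the beta chain of complement receptor integrins, was at 0.60 ± 0.31 (SE; limma adjusted p = 0.594), and Vsig4, a receptor of tissue macrophages, at 0.48 ± 0.33 (SE; limma adjusted p = 0.671).

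Genes whose pattern over the 4 arrays lay nearest to that of C6 were found by the Euclidean distance between log2 profiles centred on their means. The nearest 5 were Nkain1 at a distance of 0.079, Krt5 at 0.19, the vasopressin receptor gene Avpr1a at 0.21, Itgb7 at 0.28 and Upk1a at 0.31. The median distance over all tested genes was 1.502, and the nearest 5 lie below it by selection. Avpr1a gave 442.9 and 307.6 in AB6F1 against 1141.3 and 1031.5 in B6AF1. The other 4 were dim, with AB6F1 signals from 43.2 to 100.3. Krt5 lay below the filter signal of 60.9 on both AB6F1 arrays and Nkain1 on AB6F1 replicate 2. The nearest member was C8b at 0.78. Susd4 lay at 1.20, with a larger difference between the crosses and the AB6F1 mice in the opposite order to C6.

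RefSeq promoter windows, 250 bases before to 50 after a transcript start, were matched by symbol for 8 of the 9 members, 10 windows in all. They were searched on both strands for exact matches to 4 motifs of liver factors, of which the STAT motif reads the same on both strands, and no member window held more than 1 match. The STAT motif TTCNNNGAA occurs in 8.3% of all 32851 windows, the C/EBP motif TTGCNNAA in 10.8%, the HNF4A motif CAAAGTCCA in 0.475% and the HNF1 motif in 0.399%. Among the members, C8a held a STAT match, C9 a C/EBP match, and C4bp and Hc an HNF1 match each. The C4bp match reads GTTAATCATT from base 187 of its window, and the Hc match reads AATAATTAAC, the other strand of the motif, from base 173. The windows of Susd4, C6, C8b and C8g held none of these letters. Over the full 300 bases, the Susd4 window whose first 250 bases are printed was 81.3% G and C with 50 CpG, and the other Susd4 window was 63.7% with 12, against a median of 52.7% and 7 over all windows. The windows of C6 and C8a were 41.7% and 40.0% G and C.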

How the data were processed

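The authors deposited 1 linear intensity per probe set and array, a MAS5 signal per the submitters' processing notes. The version, the scanner settings and any genome build are not given in the sources used here. The values show that every array was scaled to a mean of 500, taken without the 2% of probe sets at either end, which removes any change common to all transcripts.

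Of 45101 probe sets, 64 were controls and 34945 had a single symbol, and 34741 symbols were updated by gene identifier through RefSeq's GRCm38.p6 table. The brightest probe set stood for a gene, and 11749 of 18193 genes lay at or above the median mean log2 signal. Log2 signals were compared in R 4.3.3 with limma 3.58.1, by lmFit and a trended, two-sided eBayes; p-values were adjusted by Benjamini-Hochberg and called under 0.05. The fit was tested on simulated data. Means are of linear signal ± SD, and folds are powers of the log2 difference.

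The members and lists were chosen with earlier results of these data known. Genes are named by rule: every member, every other complement gene that passed or else the 2 of smallest p in each class, the 5 nearest to C6, and Alb. C1qc, Cd163 and Cyp4a12a are named outside this rule, with their values known. Lists are described by counts, with no set test. Alternatives were other array scalings, 16 added to the signal, other filters and probe set choices, other variance moderation, a replicate block and each array left out. The labels number the mice as biological replicates. Background correction lies within MAS5 and could not be varied. Protein sequences were not used here.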

Additional observations from a re-analysis of the deposited data

How the results depend on the processing

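Over the alternatives run, Susd4, C6, C8b and C8g stayed lower in AB6F1, with log2 differences from -2.65 to -2.27, -1.59 to -1.21, -1.87 to -0.60 and -0.39 to -0.15. The sign changed without AB6F1 replicate 2 for C8a (0.27), C9 (0.17) and Cfi (0.21), without AB6F1 replicate 1 for C4bp (-0.07) and Hc (-0.47), without B6AF1 replicate 2 for Cfi (0.14), and by scaling for Cfi and Hc as given above. Median centring moved the median of all tested genes from 0.02 to -0.11 (log2). Limma called 25 genes, 16 higher and 9 lower. It called 49 (28 and 21) after median centring, and 0 without the intensity trend, where 1044 had an unadjusted p under 0.05. Robust moderation gave 14 lower genes. The deviations of same-numbered mice had a correlation of -0.027 over the tested genes. That value cannot tell whether the replicate numbers pair the mice. With a replicate block 62 genes were called, 40 higher and 22 lower. The number of members called was 2 after centring, with 16 added, without a filter, with robust moderation and with the block (Susd4 and C6 each time), and 0 without the trend. With 1 array left out, the calls ranged from 1 to 242 genes (1 to 142 higher, 0 to 100 lower), from 0 to 4 members and from 0 to 3 other complement genes. The count of lower members ranged from 4 to 9, and their median log2 difference from -0.55 to 0.17. A lone array of a cross is then assumed to vary like the other cross. The cause of these changes was not tested.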
